A study of Homo sapiens with 43 samples.

Results

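CRYBG1, LBH, STAP1 and NTNG1 are 4 of the 58780 Ensembl genes in the deposited tables. They were chosen by their values: in GM12878 cells at 6 h, each had a higher response to dexamethasone after pretreatment with the chromatin remodelling inhibitor BRM014 than after pretreatment with DMSO. The 8 libraries of vehicle and dexamethasone at 6 h in both pretreatment arms selected the genes, so their values are given as a description with no test. Tests of the members were kept to comparisons between libraries that the choice did not use. In the pretreatment experiment the spread was estimated from all 24 libraries, with these 8 among them.

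GM12878, a lymphoblastoid B cell line transformed by Epstein-Barr virus, was the source of 39 libraries in 20 groups. The remaining 4 came from the liver cancer line HepG2. In the stimulus panel (15 libraries), GM12878 cells were exposed for 6 h to DMSO, PBS, TNF (25 ng/mL), LPS (10 ng/mL), IL2 (50 U/mL), dexamethasone (Dex, 500 nM), the cytokine interferon gamma (IFNg, 100 ng/mL) or doxorubicin (Dox, 500 nM), with 2 libraries a group and 1 for Dox. In the pretreatment experiment (24 libraries), DMSO or 10 µM BRM014 was given 30 min before vehicle, IFNg or Dex at the same doses, and cells were taken after 1 h or 6 h, which made 12 groups of 2 libraries. HepG2 was treated for 24 h with 10 µM BRM014 (2 libraries) or DMSO (2 libraries). Each line is a single line, so the libraries of a group are replicates within that line, and the labels do not say that they came from separate cultures.

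Dexamethasone is a synthetic ligand of the glucocorticoid receptor, a transcription factor encoded by NR3C1 that binds DNA at palindromic elements and can raise or lower the genes it acts on. BRM014 blocks the ATPase subunits of BAF, SMARCA4 and SMARCA2. BAF complexes move nucleosomes at enhancers and promoters and open sites for many factors, the glucocorticoid receptor among them.

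The genes have different roles. CRYBG1, also known as AIM1, encodes a large protein with crystallin beta-gamma domains that binds actin. LBH encodes a small transcription cofactor first described in limb bud and heart and known as a Wnt target. STAP1 encodes an adaptor protein of B cells that is phosphorylated by the kinase TEC downstream of the B cell receptor. NTNG1 encodes netrin-G1, a membrane-anchored relative of the netrins best known from axons and synapses. On hg38 with GENCODE 44, all lie on the plus strand: CRYBG1 (ENSG00000112297.14) on chromosome 6 from 106360717 to 106572017, LBH (ENSG00000213626.12) on chromosome 2 from 30231534 to 30323730, STAP1 (ENSG00000035720.7) on chromosome 4 from 67558727 to 67607337, and NTNG1 (ENSG00000162631.18) on chromosome 1 from 107140007 to 107484923.

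The promoters of the genes are unlike each other, and 1 window each of CRYBG1 and LBH, which are GC-rich, and of STAP1, which is AT-rich, is shown. The sequences are from RefSeq (GRCh38.p14), plus strand, 5′ to 3′, and end 1 base before the first annotated transcript start: chr6:106360467-106360716 for CRYBG1, chr2:30231284-30231533 for LBH and chr4:67558477-67558726 for STAP1. Capitals mark matches, on either strand, to 4 motifs: the glucocorticoid receptor half-site AGAACA, the core GAGGAA bound by PU.1, the core GGGCGG bound by SP1 and the TATA core, TATAAA. No match overlaps another.
CRYBG1: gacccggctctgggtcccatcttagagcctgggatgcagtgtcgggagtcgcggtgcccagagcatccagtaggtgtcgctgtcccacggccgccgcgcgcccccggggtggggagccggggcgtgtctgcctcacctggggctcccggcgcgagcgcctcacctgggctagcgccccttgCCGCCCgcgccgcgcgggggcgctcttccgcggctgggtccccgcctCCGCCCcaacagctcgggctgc
LBH: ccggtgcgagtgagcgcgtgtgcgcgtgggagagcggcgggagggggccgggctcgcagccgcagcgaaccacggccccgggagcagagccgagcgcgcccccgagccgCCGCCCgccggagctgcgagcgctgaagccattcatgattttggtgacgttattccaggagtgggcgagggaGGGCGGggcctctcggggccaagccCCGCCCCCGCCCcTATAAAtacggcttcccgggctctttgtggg
STAP1: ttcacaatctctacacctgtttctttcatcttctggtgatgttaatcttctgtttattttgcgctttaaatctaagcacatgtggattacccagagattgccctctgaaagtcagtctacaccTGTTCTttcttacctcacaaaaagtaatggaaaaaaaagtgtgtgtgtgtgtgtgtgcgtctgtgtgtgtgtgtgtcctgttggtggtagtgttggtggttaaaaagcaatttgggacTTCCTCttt
The GC content of the 300-base windows that hold these sequences was 75.7% for CRYBG1, 71.3% for LBH and 39.7% for STAP1, against a median of 58.7% over all 35116 windows of the table. CRYBG1 showed 2 SP1 cores, and LBH showed 4 SP1 cores followed by 1 TATA core. STAP1 held no SP1 core, 1 PU.1 core in the printed bases and 1 half-site, which began 127 bases before the start. Of all windows, 14.8% held the half-site, 27.9% the PU.1 core, 45.0% the SP1 core and 11.5% the TATA core. CRYBG1 has a 2nd window, not shown, with a GC content of 62.7%, 0 SP1 cores, 1 PU.1 core and 0 half-sites. NTNG1 has 3 windows, with GC contents of 61.0%, 52.0% and 80.0%, none of them with a half-site. The full palindrome, a half-site facing its reverse complement with 3 bases between them, was in none of the members' windows and in 1 window of the table. These matches describe letters in these windows only, and distal elements were not examined.

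Library totals lay between 12.9 and 22.9 M expected counts in GM12878, between 13.8 and 22.3 M in the 8 libraries that selected the genes, and between 3.06 and 19.9 M in HepG2. The 7 B cell markers summed to between 9927 and 13270 CPM (counts per M of the scaled library total) in each GM12878 library, and 6 hepatocyte markers to at most 2.65 CPM. Most of the B cell sum was CD74, at 8658 to 11530 CPM, which HepG2 also held at 55.7 to 184 CPM. Medians of the other B cell markers ran from 9.54 CPM for EBF1 to 569 CPM for CD79A. The 4 myeloid markers summed to at most 0.957 CPM, with ELANE at 0 throughout. The 4 T cell markers summed to between 34.2 and 77.3 CPM, nearly all of it TRAC, with a median of 0 for CD3D. The inhibitor's targets and the receptor were expressed in every GM12878 library: SMARCA4 at 181 to 279 CPM, SMARCA2 at 496 to 1283 CPM and NR3C1 at 111 to 204 CPM. BRM014 acts on the proteins, so these RNA levels do not check the inhibition.

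The members were expressed at very different levels. Per unit of length, the median over the 39 GM12878 libraries was 36.8 TPM (transcripts per M, a length-scaled unit) for CRYBG1, 18.6 for LBH, 13.6 for STAP1 and 1.86 for NTNG1. In counts, CRYBG1 ranged from 1376 to 6853 per library, LBH from 122 to 995, STAP1 from 79 to 350 and NTNG1 from 23 to 118, so that NTNG1 was the least precisely measured. All 4 passed the filter on low counts in both GM12878 experiments.

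CRYBG1 was raised by Dex in both arms at 6 h and ended somewhat higher in the BRM014 arm, from a lower vehicle level. In the DMSO arm it was at 175 and 193 CPM with vehicle and at 339 and 338 CPM with Dex. In the BRM014 arm it was at 89.2 and 93.7 CPM with vehicle and at 371 and 378 CPM with Dex. The BRM014 vehicle libraries were lowest and the BRM014 Dex libraries highest of all 24, with no overlap between any of the 4 groups. The log2 difference of Dex and vehicle was 0.88 ± 0.071 (SE, here and below) in the DMSO arm and 2.03 ± 0.075 in the BRM014 arm. Each difference of 2 groups, here and below, has n = 2 and 2 libraries. The level of RNA in a bulk sample cannot tell fewer expressing cells from less RNA per cell, for this and the other genes.

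LBH was not moved by Dex beyond its replicate spread in the DMSO arm, was far lower with BRM014, and under BRM014 was higher with Dex than with vehicle. Vehicle libraries of the DMSO arm held 49.4 and 41.7 CPM, and the Dex libraries 46.1 and 47.9 CPM. With BRM014 the vehicle libraries held 7.91 and 7.25 CPM, and the Dex libraries 17.1 and 17.6 CPM. The DMSO groups overlapped, and both BRM014 groups lay far under them without overlapping each other. The Dex response was 0.051 ± 0.075 in the DMSO arm and 1.20 ± 0.11 in the BRM014 arm, on the log2 scale, and the difference of BRM014 and DMSO in vehicle cells was -2.58 ± 0.096.

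STAP1 was lower with Dex in the DMSO arm and slightly higher with Dex in the BRM014 arm. Vehicle gave 15.6 and 15.7 CPM in the DMSO arm, against 8.23 and 10.2 CPM with Dex. BRM014 alone gave 5.12 and 5.27 CPM, and BRM014 with Dex 6.71 and 6.51 CPM. The 4 groups did not overlap, and the order of vehicle and Dex was opposite in the 2 arms. The log2 response to Dex was -0.78 ± 0.13 in the DMSO arm and 0.35 ± 0.15 in the BRM014 arm.

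NTNG1 was low after either treatment and about as low after both. It was at 5.41 and 5.29 CPM with vehicle in the DMSO arm and at 2.01 and 1.70 CPM with Dex. Under BRM014 it was at 1.82 and 1.93 CPM with vehicle and at 1.65 and 1.71 CPM with Dex. The DMSO vehicle libraries stood above the other 6, whose values lay within 1.65 and 2.01 CPM. Its log2 response to Dex was -1.51 ± 0.22 in the DMSO arm and -0.16 ± 0.25 in the BRM014 arm, and its difference of BRM014 and DMSO in vehicle cells was -1.51 ± 0.22.

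**Figure D1:**
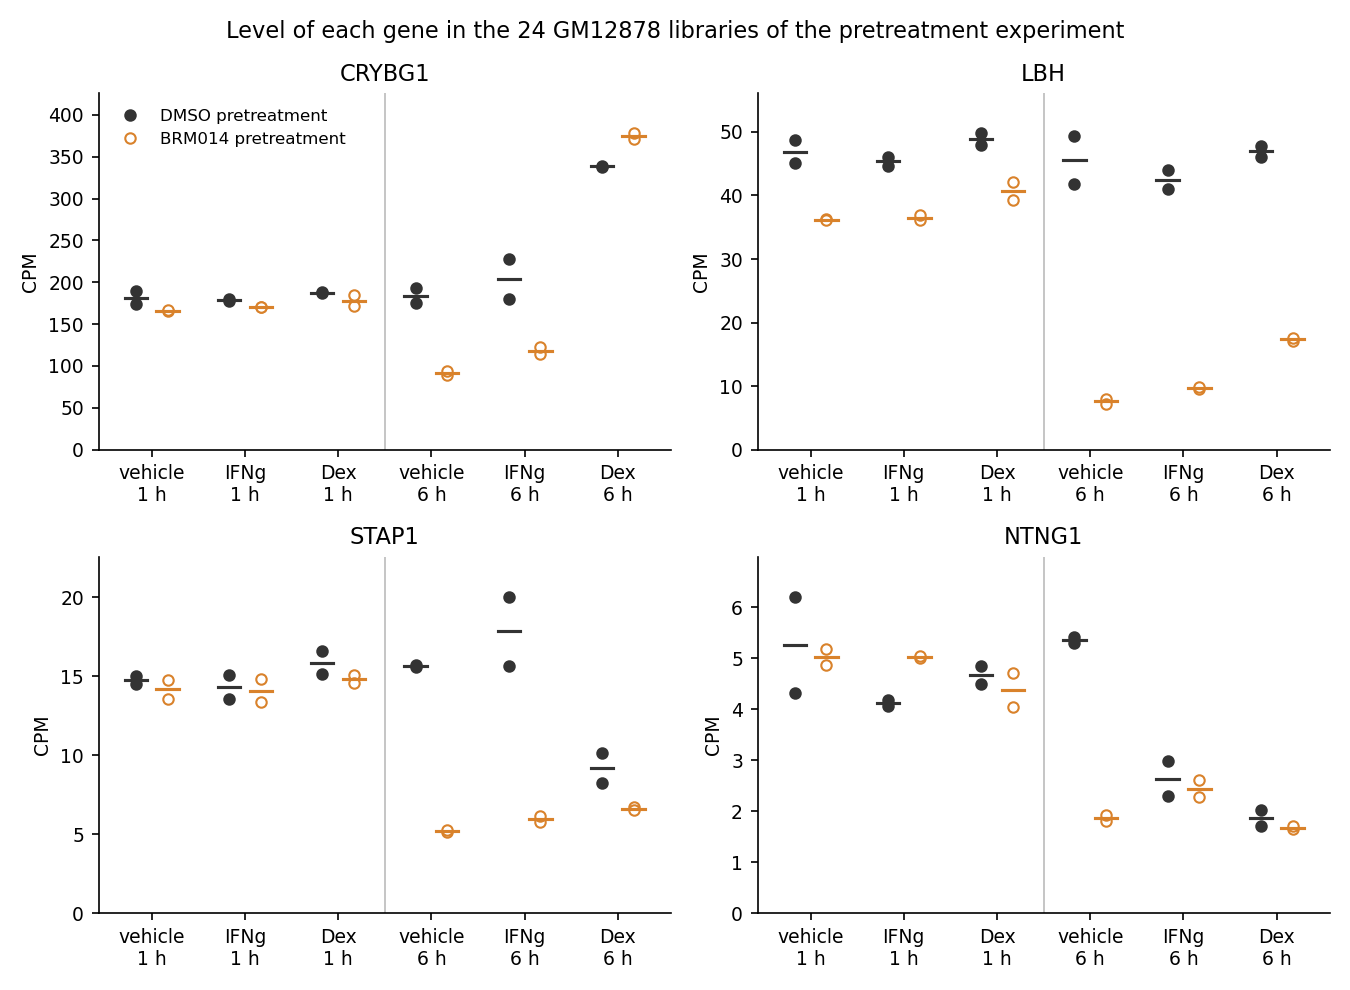
CPM (y axis, from 0) of each gene in the 24 pretreatment libraries, by stimulus and time (x axis), with DMSO pretreatment as filled and BRM014 pretreatment as open points and group means as lines. At 6 h the BRM014 vehicle points lie under the DMSO vehicle points in all 4 panels, in libraries that chose the genes. Of the 158 genes that edgeR called for a higher Dex response under BRM014 at 6 h, 73.4% were called lower with BRM014 in vehicle cells. Nothing particular to the members is therefore read from this. Dex with BRM014 reaches 371 and 378 CPM for CRYBG1 but 17.1 and 17.6 CPM for LBH, 6.71 and 6.51 CPM for STAP1 and 1.65 and 1.71 CPM for NTNG1.

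A single interaction value thus covered 4 different level patterns. The interaction (the Dex response in the BRM014 arm minus that in the DMSO arm, log2) was 1.16 ± 0.10 for CRYBG1, 1.15 ± 0.13 for LBH, 1.12 ± 0.20 for STAP1 and 1.35 ± 0.34 for NTNG1, against a median of -0.0064 over 15183 genes. The interaction compares 4 groups of 2 libraries, at 6 h as at 1 h. An interaction of this sign is measured against a product of the single effects. For CRYBG1 that product was 168 CPM and the mean with both agents 374 CPM, and for LBH it was 7.82 CPM against 17.3 CPM. For STAP1 it was 3.06 CPM against 6.61 CPM, and for NTNG1 0.650 CPM against 1.68 CPM. With both agents the mean level was 204% of the DMSO vehicle for CRYBG1, 38.1% for LBH, 42.3% for STAP1 and 31.4% for NTNG1, so that CRYBG1 alone of the 4 was above its untreated level.

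By the edgeR quasi-likelihood test with Benjamini-Hochberg adjustment, 158 genes, or 1.04% of those tested, passed the threshold for this interaction in the positive direction, and 261 passed in the negative direction. The contrast was used to choose the members, so nothing is read from this count. Among the 155 of these genes with at least 5 CPM in 1 of the 4 groups, NTNG1 ranked 3, CRYBG1 5, LBH 6 and STAP1 7. Around them stood ACKR3, an atypical chemokine receptor gene (1.69 ± 0.21), TNFSF10, which encodes the death ligand TRAIL (1.49 ± 0.36), and CMPK2, a mitochondrial nucleotide kinase gene (1.32 ± 0.29). Just after STAP1 came the interferon-stimulated gene IFIT1 (1.10 ± 0.27), the pseudokinase gene PRAG1 (1.09 ± 0.097) and MACC1 (1.03 ± 0.14).

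**Figure D2:**
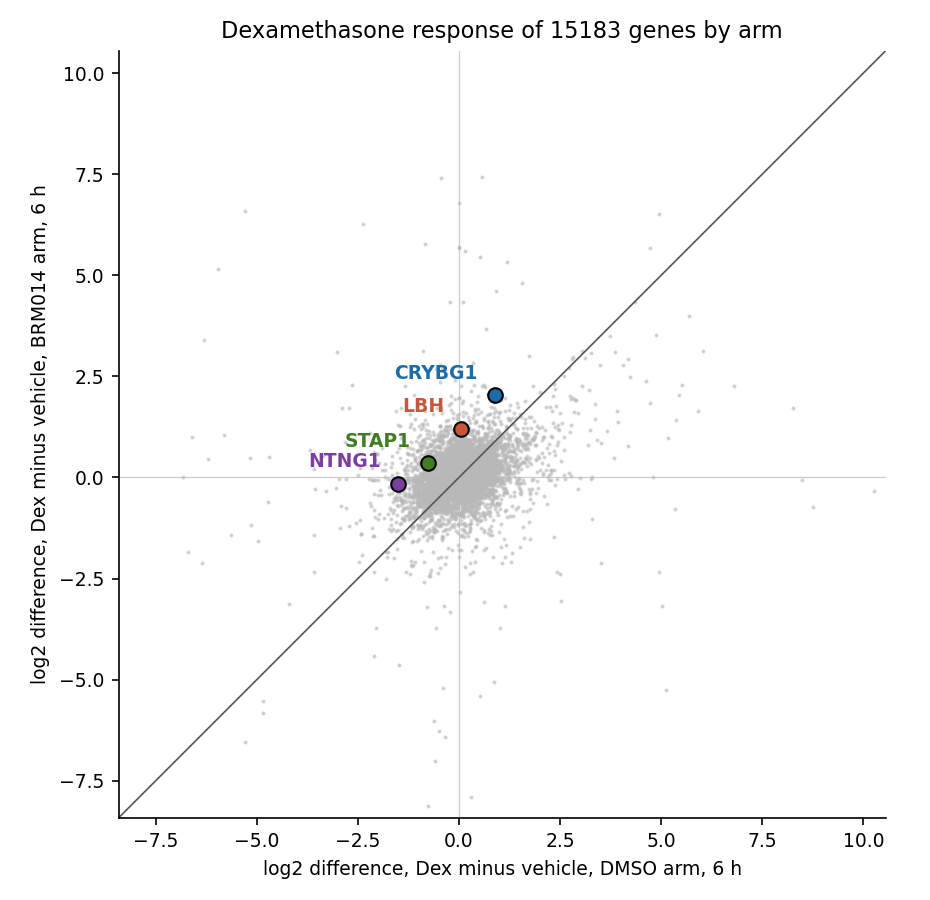
Log2 difference of Dex and vehicle at 6 h in the DMSO arm (x axis) and in the BRM014 arm (y axis) for 15183 genes (grey), with the 4 members in colour and the line of equal response. The members lie above the line, from NTNG1 at -1.51 and -0.16 to CRYBG1 at 0.88 and 2.03, at 4 different places along it.

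The stimulus panel asks whether the Dex responses of the DMSO arm recur in another experiment of the same line, with libraries that did not choose the genes. CRYBG1 rose, STAP1 and NTNG1 fell, and LBH did not pass the test. CRYBG1 was at 189 and 175 CPM with DMSO, 173 and 191 with PBS, and 292 and 314 with Dex, and both Dex libraries stood above all 4 vehicle libraries. The log2 difference from the mean of the vehicle groups was 0.74 ± 0.042 (adjusted p = 6.01e-16, edgeR quasi-likelihood test). Each panel difference, here and below, compares 2 libraries with the 4 vehicle libraries. STAP1 was at 14.9 and 13.0 CPM with DMSO, 11.8 and 13.2 with PBS, and 8.29 and 8.39 with Dex. Its Dex libraries stood under all 4 vehicle libraries, with a difference of -0.67 ± 0.11 (edgeR adjusted p = 9.79e-06). NTNG1 was at 4.45 and 5.32 CPM with DMSO, 3.74 and 4.92 with PBS, and 2.36 and 2.19 with Dex, again without overlap, and fell by 1.03 ± 0.19 on the log2 scale (edgeR adjusted p = 4.59e-05). LBH gave 37.6 and 40.8 CPM with DMSO, 46.0 and 43.3 with PBS, and 41.2 and 42.9 with Dex, which lay between the vehicles. Its difference was 0.012 ± 0.064, with a 95% interval from -0.11 to 0.14. Of all genes tested, 25.7% passed in this comparison, against 3 of the 4 members.

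IFNg, a cytokine made by activated lymphocytes, raised CRYBG1 and STAP1 in the panel. CRYBG1 was at 227 and 221 CPM and STAP1 at 18.5 and 19.7 CPM with IFNg, each above all 4 vehicle libraries. The rises were 0.30 ± 0.043 for CRYBG1 (edgeR adjusted p = 3.40e-06) and 0.52 ± 0.096 for STAP1 (edgeR adjusted p = 1.36e-04). Thus STAP1 rose with IFNg and fell with Dex, whereas CRYBG1 rose with both. LBH, at 41.0 and 42.9 CPM, and NTNG1, at 3.85 and 3.63 CPM, did not pass: their differences were 0.0072 ± 0.065 and -0.31 ± 0.17. The background was 11.9% of genes, against 2 of the 4 members.

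**Figure D3:**
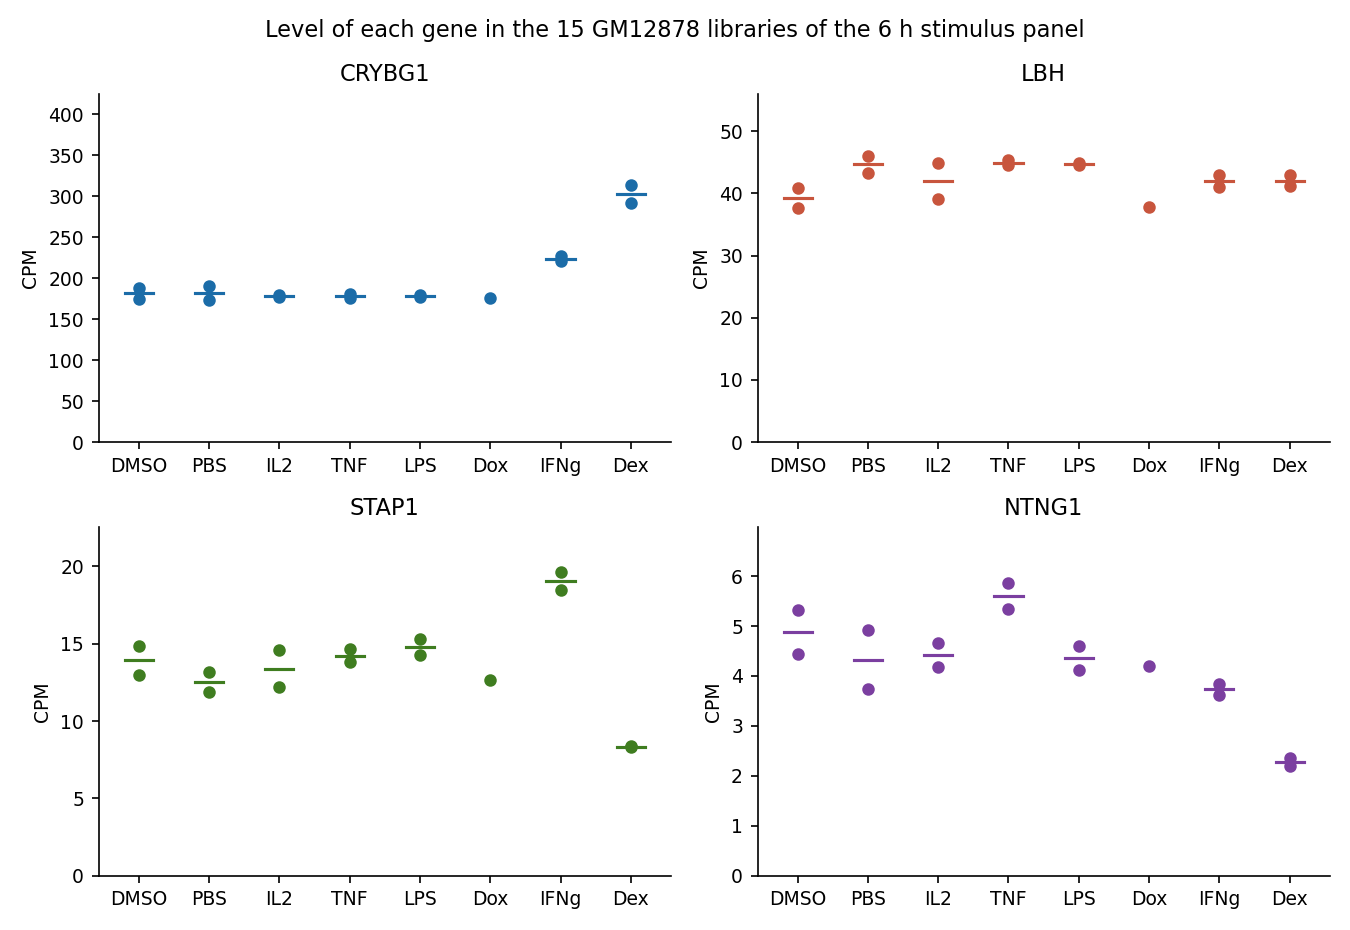
CPM (y axis, from 0) of each gene in the 15 panel libraries by stimulus (x axis), with points for libraries and lines for group means. Dex stands above the vehicles for CRYBG1 (292 and 314 CPM) and under them for STAP1 (8.29 and 8.39 CPM) and NTNG1 (2.36 and 2.19 CPM), while the LBH libraries lie between 37.6 and 46.0 CPM whatever the stimulus.

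IL2, a T cell growth factor, TNF and LPS left the members near their vehicle levels. With these 3 stimuli CRYBG1 lay between 176 and 181 CPM, LBH between 39.1 and 45.3, STAP1 between 12.2 and 15.3 and NTNG1 between 4.12 and 5.86. None of the 4 passed in any of them, where edgeR called 0.203% of genes with IL2, 0.019% with TNF and 0% with LPS. For LPS, 776 genes had an unadjusted p under 0.05, and DESeq2 called 0 as well. The single Dox library, which allows no test, gave 176, 37.8, 12.6 and 4.20 CPM for CRYBG1, LBH, STAP1 and NTNG1, all within the range of the 4 vehicle libraries.

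The 1 h libraries of the pretreatment experiment give an earlier time with Dex and BRM014. None of the 4 passed the test for Dex at 1 h in either arm, although some groups did not overlap. In the DMSO arm CRYBG1 was at 174 and 189 CPM with vehicle and 187 and 188 with Dex, and LBH at 45.1 and 48.7 CPM with vehicle and 47.9 and 49.8 with Dex. STAP1 was at 14.5 and 15.0 CPM with vehicle and 15.2 and 16.6 with Dex. NTNG1 was at 6.21 and 4.32 CPM with vehicle and 4.84 and 4.49 with Dex, so that the Dex libraries lay inside the vehicle range. In this arm only the STAP1 groups did not overlap, with Dex above vehicle. In the BRM014 arm LBH was at 36.3 and 36.1 CPM with vehicle and 42.2 and 39.3 with Dex, and CRYBG1 at 166 and 166 CPM with vehicle and 172 and 184 with Dex. STAP1 was there at 13.5 and 14.8 CPM with vehicle and 15.1 and 14.6 with Dex, and NTNG1 at 5.17 and 4.87 CPM with vehicle and 4.04 and 4.71 with Dex. Both Dex libraries thus stood above both vehicle libraries for LBH and CRYBG1 and under them for NTNG1, and the STAP1 groups overlapped. The share of all genes whose groups separate in either arm was not counted, so nothing is read from which members separated. The 95% intervals of the log2 response in the DMSO arm were -0.096 to 0.19 for CRYBG1, -0.087 to 0.21 for LBH, -0.13 to 0.33 for STAP1 and -0.54 to 0.20 for NTNG1. In the BRM014 arm they were -0.041 to 0.24, 0.016 to 0.32, -0.17 to 0.30 and -0.57 to 0.19 in the same order. The interval of LBH in that arm lay above 0, with an unadjusted p of 0.0380, and edgeR's adjusted p was 0.9995. Over all genes edgeR called 0.606% for Dex in the DMSO arm and 0.277% in the BRM014 arm, and none of the members.

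The interaction of Dex and BRM014 did not pass the test for any member at 1 h. It was 0.056 ± 0.10 for CRYBG1, 0.11 ± 0.11 for LBH, -0.039 ± 0.17 for STAP1 and -0.024 ± 0.27 for NTNG1. The 95% intervals were -0.14 to 0.26, -0.10 to 0.32, -0.37 to 0.29 and -0.56 to 0.51 in the same order. No member was among the 0.119% of genes called by edgeR. Whether the 6 h and 1 h interactions differ was not tested, since the 6 h libraries chose the genes.

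LBH was the member that had moved with BRM014 alone by 1 h. It was at 45.1 and 48.7 CPM with DMSO and at 36.3 and 36.1 CPM with BRM014 in vehicle cells, so that it fell by 0.37 ± 0.077 on the log2 scale (edgeR adjusted p = 0.00337, n = 2 and 2). The call was lost without DMSO replicate 2, where the difference was -0.317 (edgeR adjusted p = 0.148). The other 1 h libraries lay the same way. With IFNg, LBH was at 44.7 and 46.1 CPM after DMSO and 36.1 and 36.9 CPM after BRM014, and with Dex at 47.9 and 49.8 CPM against 42.2 and 39.3 CPM. CRYBG1 (-0.13 ± 0.072), STAP1 (-0.059 ± 0.12) and NTNG1 (-0.063 ± 0.19) did not pass, in a comparison where edgeR called 2.05% of all genes. IFNg for 1 h in the DMSO arm passed for none of the members, with 0.514% of genes called. CRYBG1 was then at 178 and 179 CPM (vehicle 174 and 189) and NTNG1 at 4.19 and 4.07 CPM (vehicle 6.21 and 4.32).

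The IFNg libraries at 6 h show the effect of BRM014 in cells that the choice of members did not use. CRYBG1, LBH and STAP1 fell, and NTNG1 did not pass the test. CRYBG1 was at 180 and 227 CPM after DMSO and at 114 and 123 CPM after BRM014, with a difference of -0.79 ± 0.074 (edgeR adjusted p = 6.25e-09). LBH was at 40.98 and 44.03 CPM against 9.60 and 9.90 CPM, with a difference of -2.13 ± 0.095 (edgeR adjusted p = 2.09e-17). STAP1 was at 15.6 and 20.04 CPM against 5.79 and 6.12 CPM, with a difference of -1.59 ± 0.13 (edgeR adjusted p = 5.54e-11). In these 3 genes the BRM014 libraries lay under the DMSO libraries without overlap. NTNG1 was at 2.29 and 2.99 CPM after DMSO and at 2.28 and 2.61 CPM after BRM014, which overlapped, with a 95% interval of the difference from -0.59 to 0.32. Of all genes, 33.6% passed. Replicate 2 of the DMSO IFNg group stood above replicate 1 for CRYBG1 and STAP1; without it edgeR called 3150 genes in place of 5109, and CRYBG1, LBH and STAP1 still passed at -0.607, -2.08 and -1.40.

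**Figure D4:**
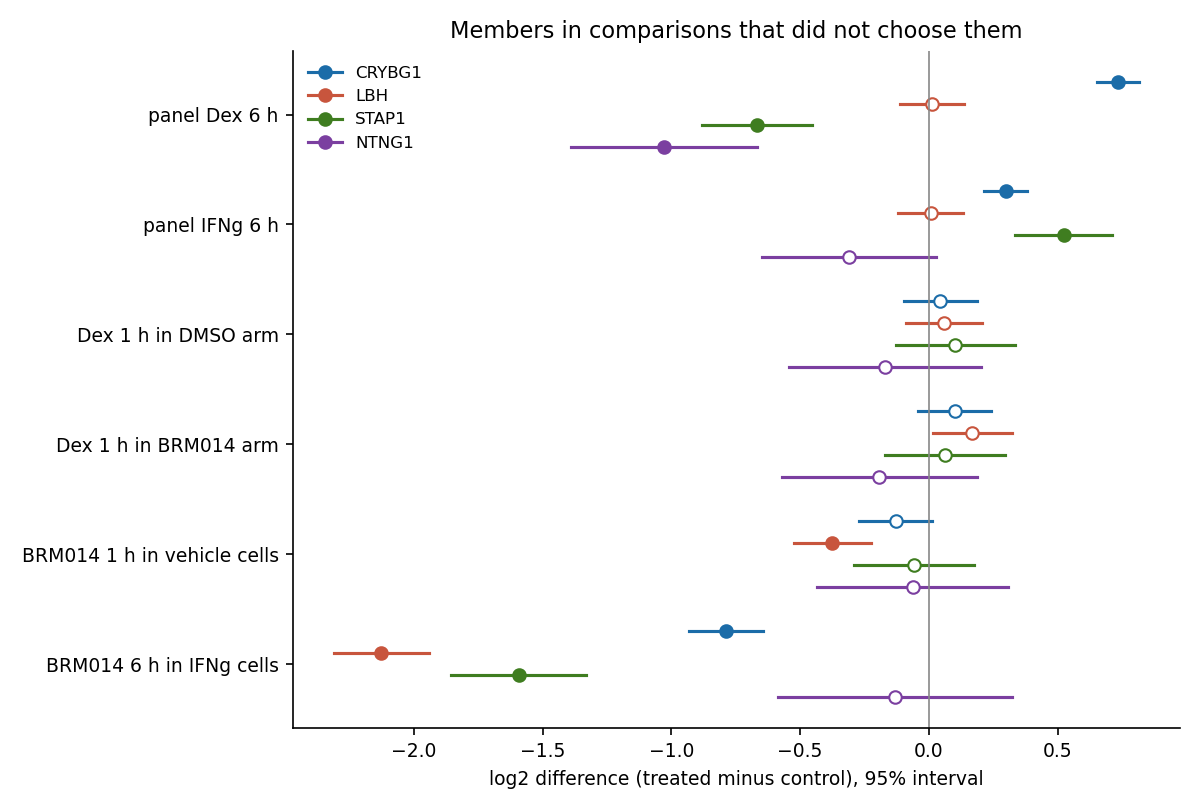
Log2 difference of treated and control libraries (x axis) with 95% intervals for the 4 genes (colours) in 6 comparisons whose libraries did not choose them (y axis); filled points had an adjusted p under 0.05 in edgeR. The longest shifts are those of LBH (-2.13) and STAP1 (-1.59) with BRM014 at 6 h in IFNg cells, and the 1 h Dex intervals of CRYBG1, STAP1 and NTNG1 include 0.

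NTNG1 was lower with IFNg than with vehicle at 6 h in the DMSO arm and higher in the BRM014 arm. The 6 h IFNg responses share the vehicle libraries that chose the genes and have no test. From mean CPM, the log2 ratio of IFNg to vehicle was 0.15 in the DMSO arm and 0.37 in the BRM014 arm for CRYBG1, -0.10 and 0.36 for LBH, 0.19 and 0.20 for STAP1, and -1.02 and 0.39 for NTNG1. In the order of the 12 group means, BRM014 with vehicle at 6 h was the lowest group for CRYBG1, LBH and STAP1, followed by BRM014 with IFNg at 6 h for all 3. For CRYBG1 the 2 Dex groups at 6 h led, and the next 6 groups, from 204 to 178 CPM, formed a run in which each overlapped the next. For NTNG1 the last 3 places, from 1.87 to 1.68 CPM, were BRM014 vehicle, DMSO Dex and BRM014 Dex at 6 h, each overlapping the next.

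In HepG2, CRYBG1 was the only member with reads. It was at 35.4 and 46.3 CPM with DMSO and 40.6 and 33.0 CPM with BRM014 for 24 h, and did not pass (-0.12 ± 0.15, edgeR adjusted p = 0.549), while 42.1% of genes did. LBH, STAP1 and NTNG1 had 0 counts in all 4 libraries. A count of 0 allows up to 3 counts, or 0.151 CPM in the deepest and 0.982 CPM in the shallowest library, which covers counting error only.

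Among relatives of the members, few were expressed in GM12878. CRYBG3 had a median of 21.6 CPM, STAP2 8.79, the LBH-domain gene LBHD1 9.15 and the netrin gene NTN1 4.07. CRYBG2, NTNG2 and LRRC4C, the gene of the netrin-G1 ligand, had medians of at most 0.123 CPM. Of 13 relatives 5 could be tested in the panel (median with Dex -0.076, against -0.0016 over all genes, of which 25.7% were called). With Dex, NTN1 rose by 1.19 ± 0.16 and LBHD1 by 0.59 ± 0.10 (edgeR adjusted p = 2.17e-07 and 2.73e-05), LRRC4B, with at most 13 counts in any library, was called lower, and CRYBG3 (-0.076 ± 0.087) and STAP2 (-0.17 ± 0.12) did not pass. With BRM014 in IFNg cells NTN1 rose by 0.74 ± 0.19 and STAP2 fell by 0.48 ± 0.16, of 4 tested (median -0.18, against 0.0056 over all genes, of which 33.6% were called).

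STAP1 acts near the B cell receptor, and 26 genes of that pathway's proximal signalling were all measured. With panel Dex, where 25.7% of all genes were called, 6 rose and 16 fell (median -0.18, against -0.0016 over all genes), including the inhibitory receptor gene CD22 (-0.91 ± 0.044) and the kinase gene CSK (-0.42 ± 0.037), which fell, and the kinase genes FYN (0.65 ± 0.043) and BLK (0.39 ± 0.035), which rose. With BRM014 in IFNg cells, where 33.6% of all genes were called, 3 rose and 19 fell (median -0.48, against 0.0056), with the phosphatase gene PTPN6 at -1.89 ± 0.063, CD22 at -1.23 ± 0.057, the adaptor gene LAT2 at -1.36 ± 0.066 and the receptor subunit gene CD79B at -1.52 ± 0.096. With panel IFNg, where 11.9% of all genes were called, 4 rose and 10 fell (median -0.073, against -0.0080), whereas STAP1 rose.

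Known glucocorticoid-induced genes gave the hormone's own readout. Of 20, 17 were measured, and with panel Dex 14 rose and 1 fell (median 0.99, against -0.0016 over all genes, of which 25.7% were called), led by TSC22D3, which encodes GILZ (4.30 ± 0.046), the chaperone gene FKBP5 (2.81 ± 0.037) and DDIT4, an inhibitor of mTORC1 (2.49 ± 0.044). At 1 h in the DMSO arm 7 of these 17 had risen and none had fallen (median 0.44, against 0.0033 over all genes, of which 0.606% were called), with TSC22D3 at 2.95 ± 0.067 and KLF9 at 1.59 ± 0.15, when no member passed. For the interaction at 1 h, where edgeR called 0.119% of all genes, 1 of the 17 was called higher and 3 lower. At 6 h, without a test, the median interaction of the 17 was -0.12, and 8 were positive. Of the genes named here, TSC22D3 (-1.30 ± 0.095), FKBP5 (-1.62 ± 0.073) and KLF9 (-1.29 ± 0.22) were well under 0 at 6 h, and DDIT4 was at 0.12 ± 0.31. NR3C1 itself fell with panel Dex (-0.60 ± 0.045) and with BRM014 in IFNg cells (-0.38 ± 0.062). SMARCA2 rose with panel Dex (0.85 ± 0.035) and fell with BRM014 in IFNg cells (-0.42 ± 0.045). Their 6 h interactions, given without a test, were 0.49 ± 0.088 for NR3C1 and -0.46 ± 0.064 for SMARCA2, with SMARCA4 at 0.044 ± 0.074. The part of these shifts in the members' values was not tested.

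Wnt feedback genes were set beside LBH. Of 11, 7 were measured in the panel (median with Dex 0.14, against -0.0016 over all genes, of which 25.7% were called), and with Dex AXIN2, a scaffold of the beta-catenin destruction complex, rose by 0.68 ± 0.11, while the transcription factor genes TCF7 (-1.06 ± 0.043) and LEF1 (-0.51 ± 0.16) fell. With BRM014 in IFNg cells 2 of 6 fell (median -0.37, against 0.0056), near the 33.6% called among all genes. They were TCF7 (-0.70 ± 0.058) and RNF43 (-0.98 ± 0.33), and AXIN2 (-0.0058 ± 0.17) did not pass.

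The nearest protein-coding genes that do not overlap a member had small estimates of the 6 h interaction, though that of VAV3 was imprecise. Genes that overlap a member were not examined. The genes taken were ATG5 and QRSL1 for CRYBG1 (35.0 and 57.6 kb away) and YPEL5 and LCLAT1 for LBH (71.0 and 187 kb). For STAP1 they were CENPC and UBA6 (13.2 and 5.32 kb), and for NTNG1 PRMT6 and VAV3 (80.8 and 86.2 kb). These interactions, given without a test, ran from -0.19 ± 0.13 for ATG5 to 0.19 ± 0.12 for PRMT6. The estimate for VAV3, -0.057 ± 0.54, was too loose to be placed near 0, and LCLAT1 was at -0.19 ± 0.18. With panel Dex, ATG5 (0.22 ± 0.079) and YPEL5 (0.26 ± 0.045) rose, and QRSL1 (-0.35 ± 0.066), UBA6 (-0.16 ± 0.056) and PRMT6 (-0.46 ± 0.088) fell, which made 5 of 8 against 25.7% of all genes. Of these genes, YPEL5 (-0.24 ± 0.069) and QRSL1 (-0.22 ± 0.079) fell with BRM014 in IFNg cells. The other 6 did not pass, so that 2 of 8 were called against 33.6% of all genes.

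The profiles of the members over the 20 GM12878 groups were compared as mean log2(CPM + 1), centred within each experiment. STAP1 and LBH were the most alike of the 4 (Pearson r = 0.83), followed by STAP1 and NTNG1 (0.76) and LBH and NTNG1 (0.57), while CRYBG1 gave 0.44 with LBH, 0.057 with STAP1 and -0.32 with NTNG1. These values describe groups that share libraries and carry no p. The groups include those of the 8 libraries that chose the genes, so likeness among the members may be partly set by that choice. Among 10443 candidate genes with a mean of at least 5 CPM, the profile most like CRYBG1 was that of TMEM243 (0.92), followed by the kinase gene MAP2K1 (0.92), LRRC41 (0.91), FSTL3 (0.90) and CYTIP (0.90). For LBH they were the efflux transporter gene ABCC1 (0.97), SHMT2 (0.97), ZNF275 (0.97), SEMA4D (0.97) and TXNDC11 (0.96). For STAP1 they were the transcription factor gene RUNX1 (0.97), CASP1 (0.96), PLAC8 (0.96), EVL (0.96) and LGALS9 (0.96). For NTNG1 they were the glycogen branching enzyme gene GBE1 (0.94), METTL8 (0.93), ABCA6 (0.93), SLC6A20 (0.93) and ABCA12 (0.93). With the 12 pretreatment groups alone, 2 of the 5 names recurred for CRYBG1, 3 for LBH, 1 for STAP1 and 0 for NTNG1.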

How the data were processed

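The 43 libraries were stranded, made from polyadenylated RNA and read from both ends, per the labels' protocols. STAR, RSEM and the build hg38 are named in the submitters' processing notes. Settings, annotation release and the use of strand in counting are not given in the sources used here. Values of overlapping or antisense genes are therefore uncertain. The deposited files hold RSEM expected counts per gene, unscaled, and TPM, which the authors' RSEM run scaled for length and depth, per the file headers. Expected counts were rounded (2.48% to 4.74% of values per file were not whole). TPM was used only to compare levels between genes. The 746 identifiers that are not Ensembl genes hold 0 counts and were left out.

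The panel, the pretreatment experiment and HepG2 were fitted separately with edgeR 4.0.16 (R 4.3.3): filterByExpr, TMM, robust quasi-likelihood dispersion, all groups of the experiment, no covariates, 2-sided tests. This kept 15775 genes in the panel, 15183 in the pretreatment experiment and 13349 in HepG2. Calls needed an adjusted p (Benjamini-Hochberg, over all genes of the comparison) under 0.05. The control of each panel stimulus was the average of the groups DMSO and PBS, since the labels do not assign a vehicle to each stimulus. CPM values are TMM-scaled, SE is the size of the log2 difference over the square root of F, and 95% intervals are 1.96 SE. P-values measure only the spread between these libraries, which may be technical. Replicate pairs differed by more than sampling noise (chi-square per degree of freedom of at least 2.52 over 21 pairs), so none was merged.

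The members and lists were chosen with earlier results of these data known. Named genes were the members, the 5 most similar genes of each, and the 10 largest called positive interactions with at least 5 CPM. The nearest protein-coding genes in RefSeq that do not overlap a member were also named. So were up to 4 genes of smallest p per list, and NR3C1, SMARCA4 and SMARCA2. Members named in a list beyond those 4, and those of the relatives given by level, were chosen after their values were seen. Alternatives were DESeq2 size factors, the DESeq2 1.42.0 Wald test, the replicate number as a block, no filter, a fit of the compared groups only, fits without the 8 selecting libraries, DMSO or PBS alone as control, each library left out, and, for profiles, a pseudocount of 0.1 and the pretreatment groups alone. The fits were tested on simulated data.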

Additional observations from a re-analysis of the deposited data

Results flagged for a closer look

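STAP1 was picked out because both Dex libraries lay under both vehicle libraries at 6 h in the DMSO arm (8.23 and 10.2 against 15.6 and 15.7 CPM) and both lay above them in the BRM014 arm (6.71 and 6.51 against 5.12 and 5.27 CPM). The log2 ratio of mean CPM differed by 1.11 between the arms. These libraries chose the gene, so the difference was not tested.

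NTNG1 was picked out because both IFNg libraries lay under both vehicle libraries at 6 h in the DMSO arm (2.29 and 2.99 against 5.41 and 5.29 CPM) and both lay above them in the BRM014 arm (2.28 and 2.61 against 1.82 and 1.93 CPM). The log2 ratios differed by 1.40 between the arms. The vehicle libraries helped to choose the gene, so this difference was not tested either. In the panel, where IFNg gave 3.85 and 3.63 CPM and the vehicles 3.74 to 5.32 CPM, the 2 groups overlapped.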

How the results depend on the processing

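No replicate numbers paired the libraries: deviations of same-numbered libraries correlated between -0.069 and 0.083 over 66 group pairs of the pretreatment experiment, -0.053 and 0.044 over 21 of the panel, and at -0.094 in HepG2. The number as a block gave 5 called genes in place of 3 for TNF and 16 in place of 0 for LPS. It changed no call of a member. Without a filter the calls were 73 (IL2, 32 with it), 22 (TNF), 20 (LPS), 64 (Dex at 1 h in the BRM014 arm, 42 with it) and 38 (1 h interaction, 18 with it). With DMSO alone as control they were 98 (IL2), 38 (TNF) and 35 (LPS), and with PBS alone 10 (IL2) and 0 (TNF). DESeq2 called 6 genes for TNF. Fits restricted to the compared groups gave 2 calls for LPS, 163 for Dex at 1 h in the DMSO arm (92) and 128 for IFNg at 1 h (78). The cause of these differences was not tested. Leaving out 1 library at a time gave 1060 to 2024 calls for panel IFNg 6 h (1872), 11 to 56 calls for panel IL2 6 h (32), 0 to 8 calls for panel TNF 6 h (3), 0 to 5 calls for panel LPS 6 h (0), 61 to 74 calls for Dex 1 h in DMSO arm (92), 27 to 33 calls for Dex 1 h in BRM014 arm (42), 8 to 15 calls for Dex by BRM014 interaction 1 h (18), 149 to 203 calls for BRM014 1 h in vehicle cells (312), 50 to 59 calls for IFNg 1 h in DMSO arm (78), 3150 to 4806 calls for BRM014 6 h in IFNg cells (5109), and 0 to 1 members called for BRM014 1 h in vehicle cells. Counts moved by over 1.5 times without either stimulus library (IFNg, IL2, TNF, LPS), PBS replicate 1 (IL2), DMSO replicate 1 (TNF) or either PBS library (TNF, LPS) in the panel. At 1 h they did so without DMSO Dex replicate 1 (Dex in the DMSO arm), BRM014 vehicle replicate 1 or BRM014 Dex replicate 2 (Dex in the BRM014 arm), any DMSO library or BRM014 vehicle replicate 1 (interaction), any compared library (BRM014) or either vehicle library (IFNg), and at 6 h without DMSO IFNg replicate 2. LBH, which passed in neither panel comparison, was at -0.0809 for Dex and -0.0857 for IFNg against PBS alone. Against DMSO alone it was at 0.105 for Dex and 0.1 for IFNg. In the same way the 6 h interaction ranged over 1.08 to 1.22 for CRYBG1, 1.03 to 1.27 for LBH, 0.972 to 1.26 for STAP1, 1.23 to 1.49 for NTNG1. Values of uncalled members that changed sign ranged over -0.0189 to 0.0417 (LBH, panel Dex 6 h), -0.0227 to 0.0368 (LBH, panel IFNg 6 h), -0.0162 to 0.108 (CRYBG1, Dex 1 h in DMSO arm), -0.412 to 0.109 (NTNG1, Dex 1 h in DMSO arm), -0.0038 to 0.118 (CRYBG1, Dex by BRM014 interaction 1 h), -0.1 to 0.0357 (STAP1, Dex by BRM014 interaction 1 h), -0.301 to 0.223 (NTNG1, Dex by BRM014 interaction 1 h), -0.13 to 0.00188 (STAP1, BRM014 1 h in vehicle cells), -0.306 to 0.215 (NTNG1, BRM014 1 h in vehicle cells), -0.294 to 0.0869 (NTNG1, BRM014 6 h in IFNg cells), -0.32 to 0.0968 (CRYBG1, BRM014 24 h in HepG2). Of all member calls only that of LBH with BRM014 at 1 h was lost in any of the alternatives run, and no uncalled member value was called in any. Depth limits NTNG1 most, with 23 to 118 counts a library.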
